A study of Homo sapiens with 6 samples.

Results

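The enzymes described here stabilise the extracellular matrix by joining or preparing its proteins for joining. They are 9 genes: transglutaminase 2 (TGM2), the 5 lysyl oxidases (LOX, LOXL1, LOXL2, LOXL3 and LOXL4) and the 3 lysyl hydroxylases (PLOD1, PLOD2 and PLOD3). They were taken by symbol from a table of 17721 genes, and all 9 had enough counts to be among the 13003 genes tested. The set was chosen from measured values, since TGM2 was already known to be among the largest increases under the ACSS2 hairpin in these libraries. The differences between the hairpin groups are therefore a description of these genes and support nothing further. A second comparison, between the replicate numbers of the libraries, played no part in choosing them.

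The cells were MDA-MB-231BR, a human line derived from MDA-MB-231 breast cancer cells that favours the brain as a site of growth. Messenger RNA was sequenced in 6 libraries of cells grown alone in culture. In 3 of them the cells stably expressed a short hairpin RNA (shRNA) against ACSS2, the enzyme that makes acetyl-CoA from acetate in the cytosol and nucleus, and in 3 they stably expressed a control shRNA. Both hairpins came in by lentivirus, followed by antibiotic selection, so every group carries an integrated vector. The labels call the 3 libraries of a group biological replicates and number them 1 to 3. Whether the numbers stand for 1 hairpin sequence or several, and whether the selected cells were a pool or a clone, goes unstated in the labels. The labels also place the number under a batch tag, so a library of one group has a partner of the same number in the other.

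Lysyl oxidases are secreted copper enzymes that oxidise lysines of collagen and elastin to aldehydes, which then react with neighbouring chains to form cross-links. Lysyl hydroxylases act earlier, in the endoplasmic reticulum, and the hydroxylysines they make decide which kind of cross-link can form and where sugars are attached. Transglutaminase 2 makes a different bond, between glutamine and lysine side chains, and is found both inside the cell and at the surface, where it binds fibronectin and integrins. In breast cancer the lysyl oxidases are known for stiffening the matrix around tumours, and LOX and PLOD2 are among the known targets of the hypoxia-inducible factors.

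Library totals lay between 15048275 and 18608124 counts. Levels are given as TPM, transcript abundances scaled to gene length and to the library, which can be compared between genes, or as CPM, counts scaled to the library alone, which cannot. Markers of the line were high in every library, with VIM between 5449 and 6820 TPM and CD44 between 298 and 486 TPM, and all 5 genes of that list reached 1 TPM. The list of hormone receptor and luminal genes was mixed, with 4 of 6 genes reaching 1 TPM and sums between 342 and 678 TPM in ACSS2 shRNA libraries and between 351 and 641 TPM in control libraries. Of these genes, KRT19 lay between 295 and 646 TPM, ERBB2 between 26.5 and 42.9 TPM and EPCAM between 1.51 and 4.39 TPM, while the oestrogen receptor ESR1 reached at most 1.21 TPM, PGR at most 0.24 TPM and CDH1 at most 0.05 TPM. Fibroblasts are a main source of these enzymes in tumours, and 1 of 6 fibroblast markers, PDGFRB, reached 1 TPM, with DCN and LUM at 0.11 TPM or less. The summed fibroblast markers were between 1.68 and 2.07 TPM in ACSS2 shRNA libraries and between 1.24 and 1.62 TPM in control libraries. The summed endothelial markers were between 8.12 and 13.8 TPM in ACSS2 shRNA libraries and between 3.96 and 9.15 TPM in control libraries, and 3 of those 5 genes reached 1 TPM. The leukocyte sum, between 414 and 819 TPM in ACSS2 shRNA libraries and between 383 and 889 TPM in control libraries, was nearly all CD68, while PTPRC was at most 0.18 TPM. Their part in the results was not tested.

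The hairpin target itself had 7.32, 33.3 and 53.0 TPM in ACSS2 shRNA libraries 1, 2 and 3, against 43.7, 44.5 and 94.5 TPM in control libraries 1, 2 and 3. Each ACSS2 shRNA library was below its partner of the same number, but ACSS2 shRNA library 3 was above control libraries 1 and 2. The log2 differences of ACSS2 in pairs 1, 2 and 3 were -2.76, -0.49 and -0.88, so ACSS2 fell least in pair 2. The log2 fold change of ACSS2 was -1.05 (SE 0.64, adjusted p = 0.504) in edgeR's quasi-likelihood test across all genes, which is called the unpaired fit here. With the replicate number added as a block, the paired fit, it was -1.31 (SE 0.30, adjusted p = 0.00757). In the authors' deposited comparison ACSS2 has a log2 fold change of -1.07 and a q-value of 0.772. Every log2 fold change has ACSS2 shRNA on top and control shRNA below. The threshold for a call was 0.05 after Benjamini-Hochberg adjustment. Because libraries of the same number vary together, both fits are given for ACSS2 and each enzyme whose call differs. For related genes only the paired values are given.

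Among the 9 enzymes, TGM2, LOX and PLOD2 rose in the paired fit and none fell, while 6 did not pass. For comparison, 1657 of the 13003 genes, or 12.7%, were called higher in that fit and 1608, or 12.4%, were called lower. The unpaired fit called 0 of the 9, with 9 genes, or 0.0692%, called among all genes. At an unadjusted p under 0.05 the unpaired fit held 2 of the 9, TGM2 and LOX, and 1820 of all genes, and DESeq2 without the block called 1 of the 9, TGM2, and 519 of all genes. The median log2 fold change of the 9 was 0.18 in the paired fit, against 0.02 for all genes. Nothing is read from these counts about the set, since the same contrast was known when it was chosen.

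**Figure D1:**
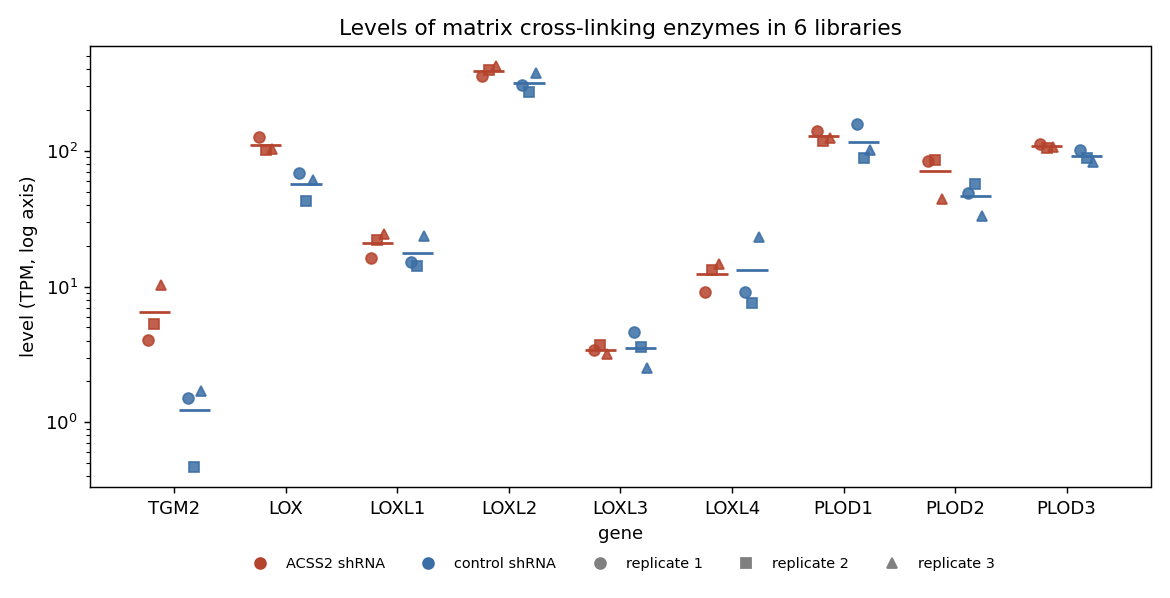
Levels of the 9 enzymes in TPM on a log axis, with 1 point per library and marker shapes for the replicate number, ACSS2 shRNA to the left of control shRNA for each gene. LOXL2 lies highest, between 273 and 422 TPM over all 6 libraries, and TGM2 in the control libraries lies lowest, between 0.47 and 1.71 TPM.

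The levels spread widely within the set. In ACSS2 shRNA cells the order was LOXL2, PLOD1, LOX, PLOD3, PLOD2, LOXL1, LOXL4, TGM2 and LOXL3. There the ranges of PLOD1 and LOX overlapped, as did those of LOX and PLOD3 and those of LOXL4 and TGM2, and the other neighbours did not overlap. In control cells it was LOXL2, PLOD1, PLOD3, LOX, PLOD2, LOXL1, LOXL4, LOXL3 and TGM2, and the neighbours that overlapped were PLOD1 with PLOD3, LOX with PLOD2, and LOXL1 with LOXL4. LOX thus stood between the hydroxylases PLOD1 and PLOD3 in ACSS2 shRNA cells, within their spread, and below both in control cells. TGM2 stood above LOXL3 in ACSS2 shRNA cells and below it in control cells.

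TGM2, at chr20:38127385-38168475 on the minus strand (GRCh38), had 4.07, 5.27 and 10.2 TPM in ACSS2 shRNA libraries 1, 2 and 3, against 1.50, 0.47 and 1.71 TPM in control libraries 1, 2 and 3. The groups did not overlap, and the lowest ACSS2 shRNA library was above the highest control library. These levels rest on 148, 171 and 369 counts in ACSS2 shRNA libraries and on 62, 18 and 62 counts in control libraries. The means were 6.52 ± 3.27 TPM in ACSS2 shRNA cells and 1.23 ± 0.664 TPM in control cells (SD, n = 3 each). TGM2 rose by 2.27 on the log2 scale in the paired fit (SE 0.30, edgeR adjusted p = 0.000277), a 4.83-fold higher level, and the unpaired value was 2.29 (SE 0.56, adjusted p = 0.135). The size varied between pairs, at 1.20, 3.25 and 2.48 on the log2 scale in pairs 1, 2 and 3, and the widest, pair 2, holds the control library with 18 counts. In bulk RNA, a higher level per cell and a larger share of cells with TGM2 cannot be told apart. The authors' deposited table gives TGM2 a log2 fold change of 2.26 and a q-value of 0.00233.

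LOX, at chr5:122063195-122078259 on the minus strand, is the founding member of its family. It had 126, 101 and 102 TPM in ACSS2 shRNA libraries 1, 2 and 3, against 68.7, 42.8 and 60.6 TPM in control libraries 1, 2 and 3. Every ACSS2 shRNA library was above every control library. LOX averaged 109.5 ± 13.9 TPM in ACSS2 shRNA cells and 57.4 ± 13.3 TPM in control cells (SD, n = 3 each). It rose by 0.84 on the log2 scale in the paired fit (SE 0.13, edgeR adjusted p = 0.000698), or 1.79-fold, and the unpaired value was 0.81 (SE 0.23, adjusted p = 0.185). The differences within pairs were 0.67, 1.16 and 0.71, so pair 2 differed most, as it did for TGM2. ACSS2 itself differed least in pair 2, at -0.49, and most in pair 1, at -2.76, where LOX and TGM2 rose least. Whether these sizes are related was not tested. The authors' deposited table gives LOX a log2 fold change of 0.78 and a q-value of 0.0875.

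TGM2 and LOX were the 2 of 9 enzymes whose CPM did not overlap between the groups and was higher under the ACSS2 hairpin, as were 1387 of all genes tested, or 10.7%. On the TPM scale, PLOD3 also did not overlap. The share of all genes without overlap in TPM is not given, and the median gene was higher by 0.11 on log2(TPM + 1).

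The other lysyl oxidases did not pass in either edgeR fit. LOXL2, a secreted family member with a role inside the nucleus as well, was the most abundant enzyme of the set, with 353, 394 and 422 TPM in ACSS2 shRNA libraries 1, 2 and 3, against 305, 273 and 373 TPM in control libraries 1, 2 and 3. Each ACSS2 shRNA library exceeded its partner in TPM, but ACSS2 shRNA library 1 lay below control library 3. In the paired fit LOXL2 had a log2 value of 0.20 (SE 0.13, edgeR adjusted p = 0.294). Under limma with the block, on the log2(TPM + 1) scale, LOXL2 had 0.30 (adjusted p = 0.0479). On that scale the median gene was also higher, by 0.11.

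LOXL1, the member needed for elastic fibres, lies at chr15:73926462-73952136 on the plus strand. It had 16.1, 21.96 and 24.5 TPM in ACSS2 shRNA libraries 1, 2 and 3, against 15.3, 14.1 and 23.7 TPM in control libraries 1, 2 and 3. The groups overlapped, and the paired fit gave 0.18 on the log2 scale (SE 0.15, edgeR adjusted p = 0.420). LOXL4, at chr10:98247690-98268194 on the minus strand, had 9.10, 13.3 and 14.6 TPM in ACSS2 shRNA libraries 1, 2 and 3, against 9.15, 7.51 and 23.3 TPM in control libraries 1, 2 and 3. Control library 3 was the highest of the 6, and the pairs went different ways, with log2 differences of -0.20, 0.73 and -0.72. The paired log2 fold change of LOXL4 was -0.09 (SE 0.21, edgeR adjusted p = 0.794), and it was 0.033 under limma on log2(TPM + 1). LOXL3, at chr2:74532258-74555702 on the minus strand, was the least abundant lysyl oxidase, with 3.42, 3.68 and 3.17 TPM in ACSS2 shRNA libraries 1, 2 and 3, against 4.59, 3.56 and 2.50 TPM in control libraries 1, 2 and 3. The ACSS2 shRNA values all lay inside the control range, and the paired fit gave -0.11 on the log2 scale (SE 0.22, edgeR adjusted p = 0.742).

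Added up, the 5 lysyl oxidases came to 536 ± 29.5 TPM in ACSS2 shRNA cells and 409 ± 71.1 TPM in control cells (SD, n = 3 each). The sums ran between 507 and 566 TPM in ACSS2 shRNA libraries and between 341 and 483 TPM in control libraries, without overlap. On log2(TPM + 1) the median gene was also higher, by 0.11, and LOXL2, most of the sum, passed in neither edgeR fit. LOX made up 20.6 ± 3.65% of the sum in ACSS2 shRNA cells and 14.1 ± 2.61% in control cells, and LOXL2 made up 72.6 ± 2.65% in ACSS2 shRNA cells and 77.7 ± 2.21% in control cells. Neither share overlapped between the groups. A share can only grow at the cost of the others, and the TPM of LOXL2 itself was not lower in any pair. LOXL1, LOXL4 and LOXL3 together held the small remainder, at means of 3.87%, 2.29% and 0.641% in ACSS2 shRNA cells and 4.28%, 3.10% and 0.901% in control cells.

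**Figure D2:**
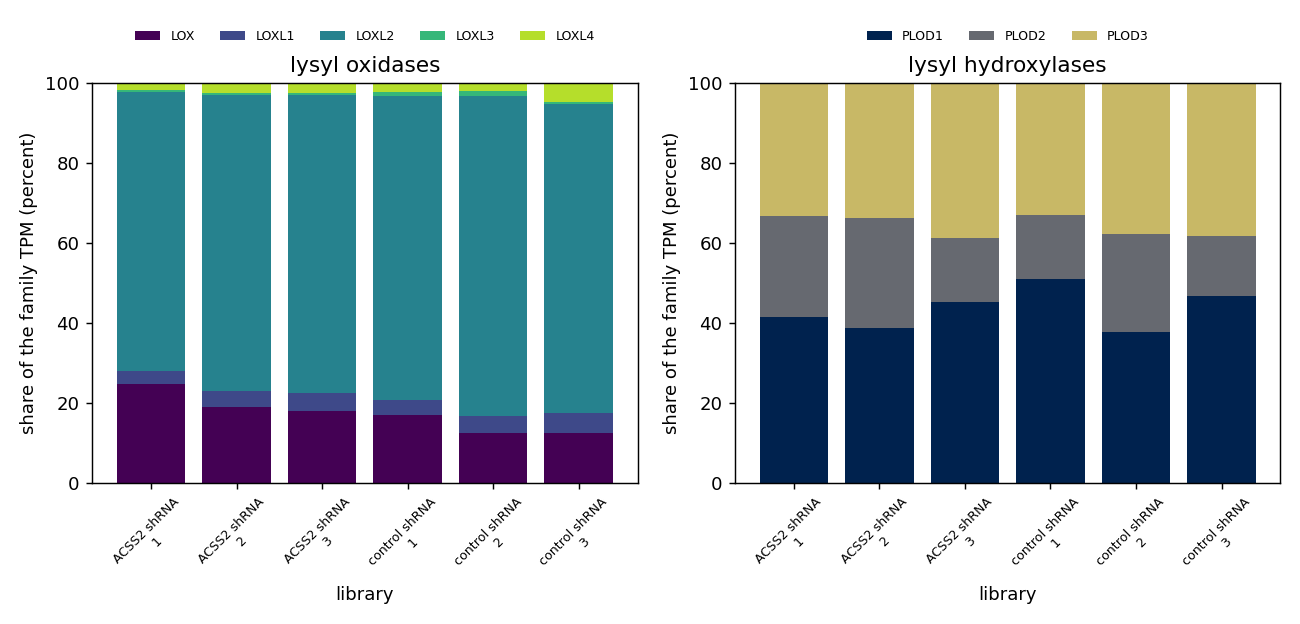
Share of each enzyme in the summed TPM of its family, in percent, for the 5 lysyl oxidases and the 3 lysyl hydroxylases, with 1 bar per library and the ACSS2 shRNA libraries to the left. LOX takes between 18.1% and 24.8% of the lysyl oxidase sum in ACSS2 shRNA libraries and between 12.5% and 17.1% in control libraries.

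Among the hydroxylases, PLOD2, at chr3:146069440-146161184 on the minus strand, is the one that hydroxylates the telopeptides of fibrillar collagen, which gives the more stable cross-links. It had 84.3, 84.8 and 43.9 TPM in ACSS2 shRNA libraries 1, 2 and 3, against 49.1, 57.3 and 32.9 TPM in control libraries 1, 2 and 3. ACSS2 shRNA library 3 lay below control libraries 1 and 2, so the groups overlapped, but each ACSS2 shRNA library was above its partner. PLOD2 averaged 71.0 ± 23.5 TPM in ACSS2 shRNA cells and 46.4 ± 12.4 TPM in control cells (SD, n = 3 each). It rose by 0.49 on the log2 scale in the paired fit (SE 0.11, edgeR adjusted p = 0.00725), or 1.40-fold, with 0.59, 0.50 and 0.37 in pairs 1, 2 and 3. The unpaired log2 fold change was 0.50 (SE 0.27, adjusted p = 0.446). Leaving out both libraries numbered 2 gave 0.45 in the paired fit, which no longer passed (adjusted p = 0.0864). The authors' deposited table gives PLOD2 a log2 fold change of 0.48 and a q-value of 0.600.

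PLOD1 and PLOD3 were more abundant than PLOD2 and did not pass in either edgeR fit. PLOD1, which acts on the triple-helical part of collagen, lies at chr1:11934717-11975537 on the plus strand. It had 139, 119 and 125 TPM in ACSS2 shRNA libraries 1, 2 and 3, against 156, 88.1 and 102 TPM in control libraries 1, 2 and 3. The control libraries spread more widely and enclosed all 3 ACSS2 shRNA values, and the paired fit gave 0.08 on the log2 scale (SE 0.14, edgeR adjusted p = 0.730). PLOD3, at chr7:101205984-101217581 on the minus strand, also carries glycosyltransferase activity. It had 112, 104 and 107 TPM in ACSS2 shRNA libraries 1, 2 and 3, against 102, 88.0 and 83.4 TPM in control libraries 1, 2 and 3. Those TPM values did not overlap, whereas the CPM values did, at 169.9, 158.5 and 180.2 CPM in ACSS2 shRNA libraries and 177.4, 141.2 and 144.7 CPM in control libraries. The paired log2 fold change of PLOD3 was 0.14 (SE 0.12, edgeR adjusted p = 0.410).

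The summed hydroxylases came to 306 ± 29.1 TPM in ACSS2 shRNA cells and 253 ± 47.5 TPM in control cells (SD, n = 3 each), with overlapping ranges. PLOD2 held 22.9 ± 6.16% of that sum in ACSS2 shRNA cells and 18.5 ± 5.23% in control cells, which overlapped as well. PLOD1 held 41.8 ± 3.34% in ACSS2 shRNA cells and 45.1 ± 6.74% in control cells, and PLOD3 held 35.3 ± 3.04% in ACSS2 shRNA cells and 36.3 ± 2.81% in control cells.

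**Figure D3:**
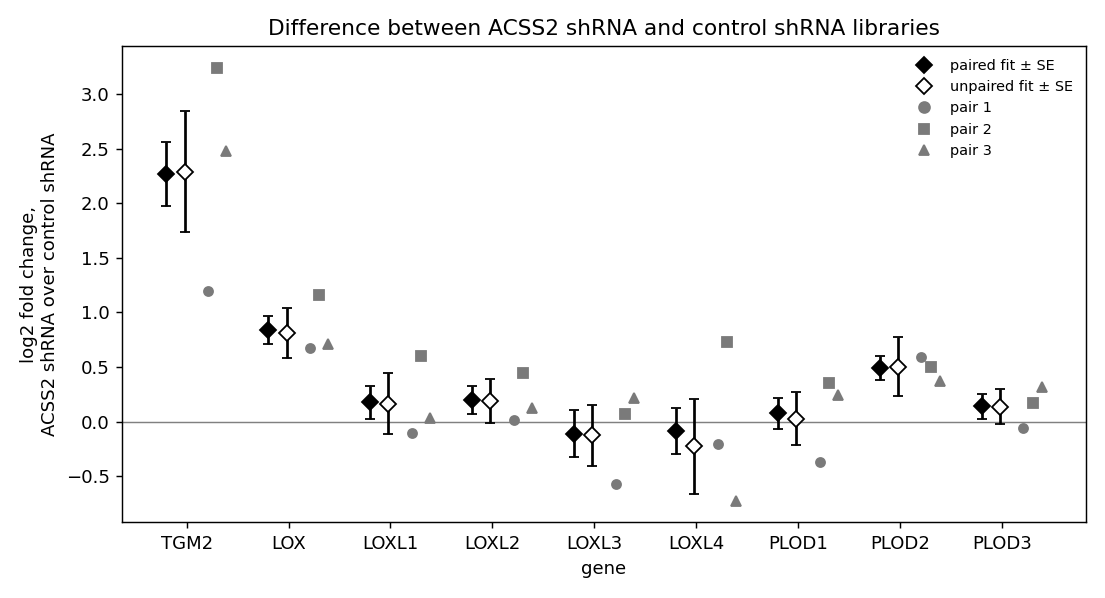
Log2 fold change of ACSS2 shRNA over control shRNA for each enzyme, with filled diamonds for the paired fit and open diamonds for the unpaired fit, bars for the SE and small markers for the 3 pairs. TGM2 lies at 2.27, LOX at 0.84 and PLOD2 at 0.49 in the paired fit, with all 3 pairs above 0, as for LOXL2, while the pairs of LOXL1, LOXL3, LOXL4, PLOD1 and PLOD3 fall on both sides of 0.

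LOX and PLOD2 are both textbook hypoxia targets and both passed in the paired fit, so they were picked after their values were seen. Which other enzymes of the set are such targets was not examined. The start regions of LOX and PLOD2 are shown, read from RefSeq on GRCh38.p14. Each runs from 250 bases before to 50 bases after an annotated start. Capitals mark ACGTG, a form of the core that hypoxia-inducible factors bind, or CACGT, the same form on the other strand. They also mark CCAAT, the CCAAT box. The form GCGTG was not searched for. The windows are chr5:122078210-122078509 for LOX and chr3:146161135-146161434 for PLOD2, the LOX one at its start farthest upstream, both printed 5′ to 3′ along the minus strand that carries the gene.
LOX: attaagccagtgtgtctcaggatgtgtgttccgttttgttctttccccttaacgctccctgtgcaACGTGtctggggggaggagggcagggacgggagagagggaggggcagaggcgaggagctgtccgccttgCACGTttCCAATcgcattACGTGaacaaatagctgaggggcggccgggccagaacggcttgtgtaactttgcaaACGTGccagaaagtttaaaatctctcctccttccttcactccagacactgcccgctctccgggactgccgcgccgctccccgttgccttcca
PLOD2: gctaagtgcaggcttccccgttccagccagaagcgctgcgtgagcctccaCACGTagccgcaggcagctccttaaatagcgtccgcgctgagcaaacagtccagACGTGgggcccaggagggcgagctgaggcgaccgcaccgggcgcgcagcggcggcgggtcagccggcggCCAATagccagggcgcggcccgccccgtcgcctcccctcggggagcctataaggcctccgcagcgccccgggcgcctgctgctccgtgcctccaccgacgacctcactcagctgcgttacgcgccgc

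On either strand, ACGTG occurred 4 times in this LOX window and 2 times in the PLOD2 window. Windows at the other LOX starts in RefSeq held it 1 time each, but these windows overlap and the match is the same site. ACGTG was found in no window of LOXL1, LOXL3, LOXL4, PLOD1 or PLOD3, and TGM2 and LOXL2 had no window to search. Since GCGTG was not searched for, these counts do not show which windows lack a hypoxia core. Of 35116 such windows in the table, 21.4% hold ACGTG at least once. CCAAT occurred 1 time in each printed window, against a share of 34.6%, and the GC box GGGCGG 1 time in each, against 44.95%. LOXL4 held 7 GC boxes and 45 CpG, PLOD2 held 37 CpG and the printed LOX window 19 CpG, where the median window holds 14. The TATA box TATAAA, present in 11.5% of all windows, was found in none of the members' windows. The same held for the AP-1 site TGANTCA, present in 7.71%, and for the cyclic AMP element TGACGTCA, present in 1.85%. These matches describe letters and are not binding sites.

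The comparison between replicate numbers asked which enzymes differed among the libraries numbered 1, 2 and 3 once the hairpin group was accounted for. TGM2, LOX, LOXL1, LOXL4, PLOD1 and PLOD2 passed, which is 6 of 9, and LOXL2, LOXL3 and PLOD3 did not. Among all 13003 genes, 5030, or 38.7%, passed, so differences by replicate number were common throughout. The labels do not say what the numbers stand for beyond a batch tag.

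The steepest of these differences belonged to TGM2, which was higher by 1.29 on the log2 scale in the libraries numbered 3 than in those numbered 2 and by 0.91 than in those numbered 1 (edgeR adjusted p = 0.0216). LOXL4 was higher by 1.12 in number 3 than in number 1 (edgeR adjusted p = 0.00647), and LOXL1 by 0.66 (edgeR adjusted p = 0.0212). PLOD2 went the other way, with a log2 difference of -0.70 between numbers 3 and 1 and -0.74 between numbers 3 and 2 (edgeR adjusted p = 0.00207). LOX and PLOD1 were highest in number 1, with log2 differences of -0.56 for LOX (edgeR adjusted p = 0.0332) and -0.60 for PLOD1 (edgeR adjusted p = 0.0412) between numbers 2 and 1. The set therefore did not move in 1 direction with the replicate number. Without a term for the hairpin group, 0 of the 9 passed. The count among all genes in that fit is not given, so this 0 has no background beside it.

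**Figure D4:**
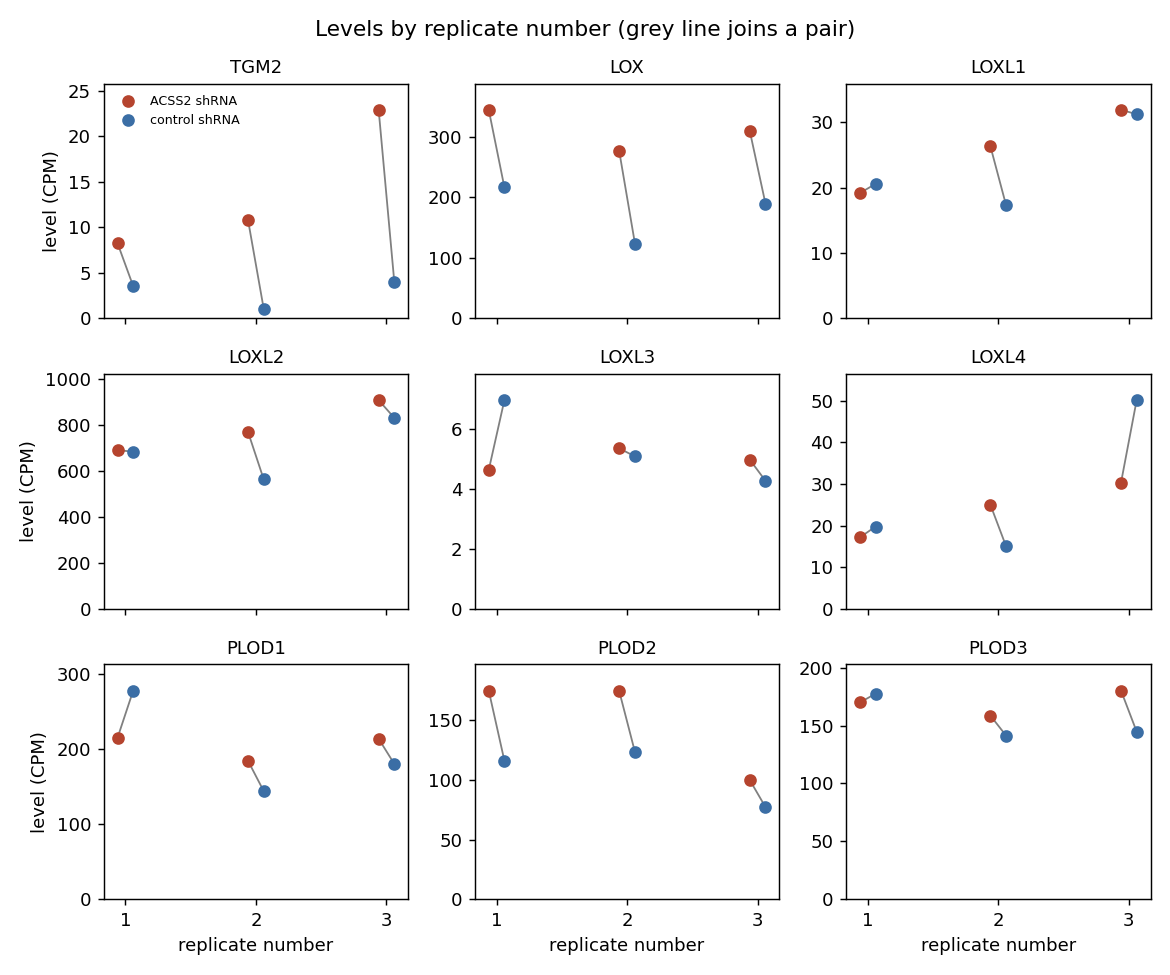
Level of each enzyme in CPM by replicate number, with a grey line joining the ACSS2 shRNA and control shRNA libraries of the same number and each panel on its own axis starting at 0. PLOD2 drops in both libraries numbered 3, to 99.8 CPM with ACSS2 shRNA and 77.2 CPM with control shRNA, while LOXL4 reaches 30.3 CPM with ACSS2 shRNA and 50.1 CPM with control shRNA in those libraries.

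The substrates of these enzymes were described from a list of 16 genes, which holds fibrillar collagens, the type IV collagens of basement membranes, the type VI collagens of beaded filaments, elastin, fibronectin, fibrillins and LTBP1. Of them, 11 were tested, and 8 were called higher in the paired fit, 0 lower and 3 did not pass. The median log2 fold change was 0.87 against 0.02 for all genes. For this and the lists below, 12.7% of all genes tested were called higher in the paired fit and 12.4% lower. The 5 substrates not tested were COL1A2, also of type I collagen, COL3A1, COL11A1, elastin (ELN) and FBN2. Each was at 0.22 TPM or less in every library, with COL1A2 at most 0.08 TPM and ELN at most 0.16 TPM. COL5A1, a collagen that sets fibril diameter, had 44.3, 34.8 and 24.5 TPM in ACSS2 shRNA libraries 1, 2 and 3, against 15.2, 11.8 and 11.8 TPM in control libraries 1, 2 and 3. The groups did not overlap, and COL5A1 rose by 1.28 on the log2 scale in the paired fit (SE 0.12, edgeR adjusted p = 5.05e-05). COL1A1, a chain of type I collagen, had 18.0, 12.4 and 7.76 TPM in ACSS2 shRNA libraries and 5.43, 5.55 and 3.99 TPM in control libraries, a rise of 1.22 (SE 0.14, edgeR adjusted p = 0.000170). LTBP1, which anchors latent TGF-beta in the matrix and is joined there by transglutaminase, rose by 1.11 (SE 0.12, edgeR adjusted p = 0.000127). Neither COL1A1 nor LTBP1 overlapped between the groups.

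Partners in collagen hydroxylation and folding changed in both directions. Of 18 genes, 17 were tested, and 8 were called higher, 2 lower and 7 were not called in the paired fit, with a median of 0.32. COLGALT1, which adds galactose to the hydroxylysines that PLOD enzymes make, had 483, 429 and 436 TPM in ACSS2 shRNA libraries 1, 2 and 3, against 258, 239.8 and 236 TPM in control libraries 1, 2 and 3. These groups did not overlap, and COLGALT1 rose by 0.76 (SE 0.12, edgeR adjusted p = 0.000938). SERPINH1, the collagen chaperone, rose by 0.57 (SE 0.12, edgeR adjusted p = 0.00384), with overlapping groups. The prolyl 3-hydroxylase P3H2 fell by 0.76 (SE 0.12, edgeR adjusted p = 0.000688), also with overlap, and the other lower gene was CRTAP, at -0.46, named after its value was seen. Without replicate 2 the paired fit called 2 of these genes higher and 1 lower, while calls among all genes went from 3265 to 1581.

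Genes that process LOX, supply its copper or bring it to its substrates numbered 15, of which 12 were tested, with 5 called higher, 1 lower and 6 not passed in the paired fit. BMP1, the protease that releases active LOX from its precursor, had 46.6, 21.7 and 12.7 TPM in ACSS2 shRNA libraries 1, 2 and 3, against 19.4, 8.61 and 6.37 TPM in control libraries 1, 2 and 3. BMP1 was above its partner in every pair although the groups overlapped, and it rose by 1.06 (SE 0.13, edgeR adjusted p = 0.000190). The copper importer SLC31A1 had 7.53, 6.76 and 9.30 TPM in ACSS2 shRNA libraries 1, 2 and 3, against 15.4, 13.9 and 17.5 TPM in control libraries 1, 2 and 3. It was the 1 lower gene, without overlap, and fell by 1.10 on the log2 scale (SE 0.12, edgeR adjusted p = 0.000133). The other copper genes of the list, ATP7A and ATOX1, were named after their values were seen. ATP7A rose by 0.64 (SE 0.18, edgeR adjusted p = 0.0233), without overlap, and ATOX1 had -0.08 (edgeR adjusted p = 0.606). LTBP3, another latent TGF-beta binding protein, rose by 1.40 (SE 0.19, edgeR adjusted p = 0.000404), with overlapping groups.

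No other enzyme on the list of transglutaminases, amine oxidases and further matrix cross-linkers was called higher. Of 15 genes, 13 were in the table and 7 were tested, of which 2 were called lower and 5 were not called in the paired fit. PXDN, a peroxidase that cross-links type IV collagen, had 88.3, 79.4 and 84.7 TPM in ACSS2 shRNA libraries 1, 2 and 3, against 135, 143 and 128 TPM in control libraries 1, 2 and 3, without overlap. It fell by 0.79 (SE 0.12, edgeR adjusted p = 0.000704). QSOX1, which introduces disulfide bonds into secreted proteins, fell by 0.84 (SE 0.13, edgeR adjusted p = 0.000686), also without overlap. TGM1, a transglutaminase of stratified epithelia named here for its kinship with TGM2, had 0.75, 0.80 and 0.83 TPM in ACSS2 shRNA libraries and 0.63, 1.30 and 1.32 TPM in control libraries, with a log2 fold change of -0.51 (SE 0.32, edgeR adjusted p = 0.267).

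Surface proteins that bind or handle TGM2 numbered 10, all tested, with 5 called higher, 1 lower and 4 not passed in the paired fit. LRP1, the receptor that takes TGM2 up from the surface, had 21.5, 16.7 and 16.0 TPM in ACSS2 shRNA libraries 1, 2 and 3, against 9.34, 7.30 and 10.2 TPM in control libraries 1, 2 and 3. The groups did not overlap, and it rose by 0.90 (SE 0.12, edgeR adjusted p = 0.000404). ADGRG1, an adhesion receptor that binds TGM2, rose by 1.17 (SE 0.17, edgeR adjusted p = 0.000645) without overlap, and the integrin subunit ITGB3 by 1.32 (SE 0.18, edgeR adjusted p = 0.000404) with overlap. The lower gene, named after its value was seen, was TXN, a thioredoxin that reduces TGM2, at -0.46. Without replicate 2 the counts were 3 higher and 0 lower, while calls among all genes went from 3265 to 1581.

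Of 15 hypoxia response genes, 7 were called higher in the paired fit, 0 lower and 8 neither, with a median log2 fold change of 0.11. EGLN3, an oxygen-sensing hydroxylase, had 13.8, 8.43 and 4.50 TPM in ACSS2 shRNA libraries 1, 2 and 3, against 6.75, 2.41 and 2.37 TPM in control libraries 1, 2 and 3. Each pair was higher under the ACSS2 hairpin, the groups overlapped, and EGLN3 rose by 1.13 (SE 0.20, edgeR adjusted p = 0.00166). NDRG1 rose by 1.06 (SE 0.23, edgeR adjusted p = 0.00615) and the growth factor VEGFA by 0.81 (SE 0.18, edgeR adjusted p = 0.00614), both with overlap. Those not called, named after their values were seen, include HIF1A at 0.08, EPAS1 at 0.01, PGK1 at 0.11 and ALDOA at 0.08. The rest of them were SLC2A1 at -0.06, LDHA at -0.14, ENO1 at -0.05 and ADM at -0.23. By replicate number, 10 of the 15 hypoxia genes passed, as did 7 of 17 tested hydroxylation and folding partners, 7 of 12 genes of LOX maturation, 6 of 11 substrates, 4 of 7 other cross-linkers, 2 of 10 TGM2 partners and 4 of 11 TGF-beta and YAP genes, against 38.7% of all genes. Without replicate 2 the paired fit called 1 of the 15 higher, while calls among all genes went from 3265 to 1581. Whether the hypoxia genes and LOX or PLOD2 moved for a shared reason was not tested.

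Of 11 targets and ligands of TGF-beta and YAP, 3 were called higher, 1 lower and 7 were not called in the paired fit, with a median of 0.06. TGFBI, a secreted matrix protein, had 127, 52.1 and 23.04 TPM in ACSS2 shRNA libraries 1, 2 and 3, against 28.99, 8.65 and 9.21 TPM in control libraries 1, 2 and 3. TGFBI rose by 1.92 (SE 0.18, edgeR adjusted p = 5.00e-05), although ACSS2 shRNA library 3 lay below control library 1. SMAD7, an inhibitor of TGF-beta signalling, rose by 1.34 (SE 0.22, edgeR adjusted p = 0.00118), with CPM that overlapped. AMOTL2, a YAP target, fell by 0.52 (SE 0.12, edgeR adjusted p = 0.00642), without overlap. Without replicate 1 the paired fit called 3 of the 11 lower, and without replicate 2 it called 0 lower. Calls among all genes were then 2765 and 1581, against 3265 in the full paired fit.

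**Figure D5:**
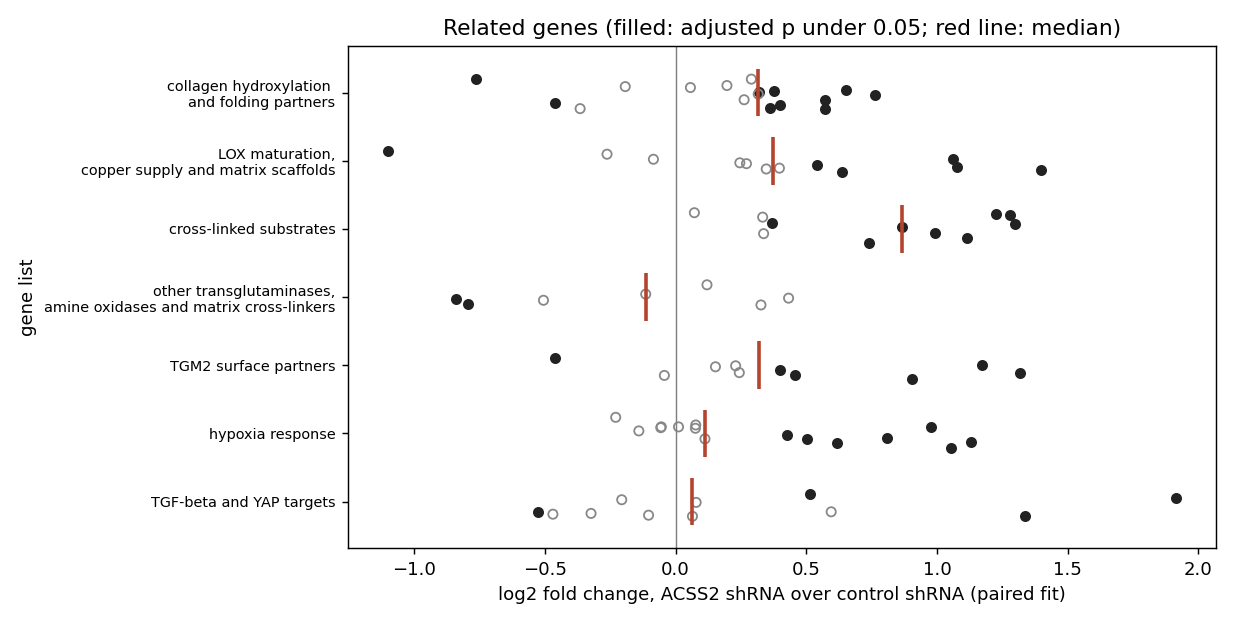
Log2 fold change of ACSS2 shRNA over control shRNA in the paired fit for the tested genes of the 7 related lists, with 1 point per gene, filled where the adjusted p was under 0.05 and a red line at the list's median. The substrates have the highest median, 0.87, and the other transglutaminases, amine oxidases and cross-linkers the lowest, -0.11.

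The unpaired fit called 0 genes in each of the 7 related lists. The lists were chosen with earlier results of these libraries known, so their counts describe them and do not support a direction.

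From the 10695 genes averaging 5 CPM or more, those whose log2 CPM followed each enzyme most closely over the 6 libraries were picked by Pearson's r. For TGM2 they were APEH, BHLHE40 and TNIP2 (r of 0.995, 0.992 and 0.992). BHLHE40, a transcription factor, had 275, 362 and 404 TPM in ACSS2 shRNA libraries 1, 2 and 3, against 139.7, 81.9 and 160.3 TPM in control libraries 1, 2 and 3, so it too was lowest in control library 2 and highest in ACSS2 shRNA library 3. For LOX they were TMEM222, MTMR14 and GTPBP2 (r of 0.999, 0.995 and 0.995), for LOXL2 they were NPDC1, METRN and TM7SF2 (r of 0.997, 0.995 and 0.992), and for PLOD2 they were GLMN, ZNF66 and EOGT (r of 0.997, 0.993 and 0.992). The 6 libraries share hairpin groups and replicate numbers, and values this high are found by searching many genes, so they only name the nearest patterns.

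Some of these genes share their position with others. SRFBP1 overlaps LOX, LOXL1-AS1 and LOXL2-AS1 overlap LOXL1 and LOXL2, and HTRA2 and DOK1 overlap LOXL3. The sources used here do not say whether counting used strand, so values of these 4 enzymes are uncertain to that extent. The table's own gene spans also take in other RefSeq genes, 9 for PLOD3, 7 for LOXL3, 4 for PLOD1, 3 each for PLOD2 and LOXL2, 2 for LOXL4 and 1 each for LOX and LOXL1, and 0 for TGM2. How reads were shared among them is not stated, so the values of those 8 enzymes carry that uncertainty too. SRFBP1 had a paired log2 fold change of 0.001 (edgeR adjusted p = 0.997) and lay between 5.52 and 10.2 TPM over the 6 libraries, well below LOX. HTRA2 had 0.33 (edgeR adjusted p = 0.0414) and DOK1 -0.19 (edgeR adjusted p = 0.301). HTRA2 lay between 40.3 and 59.6 TPM and DOK1 between 35.1 and 43.6 TPM. Both were well above LOXL3, which lay between 2.50 and 4.59 TPM, so its values are the more exposed to this uncertainty. For 3 of the 9 enzymes, LOXL2, LOXL4 and PLOD2, the table gives the strand opposite to that of GENCODE. In the table, 14 of the 24 PLOD2, 7 of the 8 PLOD3 and 10 of the 12 LOXL2 transcripts carry identifiers particular to the sequencing provider. So do 9 of 17 for LOXL3, 5 of 10 for LOXL4, 4 of 7 for PLOD1, 3 of 6 for LOX and 1 of 7 for TGM2. LOXL1 has 0 of 4.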

How the data were processed

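Messenger RNA of 6 libraries, 3 with ACSS2 shRNA and 3 with control shRNA, was sequenced with oligo(dT) enrichment on DNBSEQ, per the labels' protocols. The authors' deposited table holds expected counts and TPM per gene, and the submitters' processing notes name RSEM, Bowtie2 and HISAT without versions. The authors also deposited their own comparison, of which the log2 fold change, the p-value and the q-value were read. It holds no values for 860 genes. The sources used here do not name the table's annotation, and its FPKM columns were not used. Before use, 565 lines of spilled text were left out and 26 symbols turned into dates were restored by gene ID. Between 10.47% and 13.01% of the expected counts of a library were not whole and were rounded. The deposited data hold between 15048275 and 18608124 counts per library, and the tests take counting error and replicate spread together.

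Counts were tested with edgeR 4.0.16 in R 4.3.3 (TMM factors, filterByExpr with a minimum count of 10 and a minimum total of 15, quasi-likelihood F test), with Benjamini-Hochberg adjustment over all 13003 genes. The SE was taken as the size of the log2 fold change over the root of its F statistic. The replicate number was a block in the paired fit. Deviations from the group means correlated by 0.716, 0.494 and 0.740 between libraries of the same number. The numbers, which the labels give as a batch tag, therefore pair the libraries. Between libraries of different numbers the correlation was at most -0.01. Since the deviations of a group cancel out, these low values follow in part from the high ones and are no separate evidence. The biological coefficient of variation was 26.6% without and 11.8% with the block. Scripts were tested on simulated data. DESeq2 1.42.0, limma 3.58.1 on log2(TPM + 1) and log2(TPM + 0.1), other scaling factors, no filter and leaving out libraries were alternatives. Because nothing states that the replicates came from separate thaws or infections, p-values measure the spread between these libraries.

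Named from each related list were up to 3 called genes with the smallest paired p, and for TGM2, LOX, LOXL2 and PLOD2 the 3 genes with the highest correlation. The members and lists were chosen with earlier results of these data known. Positions are from RefSeq and strands from GENCODE, both on GRCh38.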

Additional observations from a re-analysis of the deposited data

How the results depend on the processing

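Against 0 of the 9 enzymes called and 9 genes called in all by the unpaired edgeR fit, the replicate block gave 3 enzymes and 3265 genes, DESeq2 gave 1 and 519, and DESeq2 with the block gave 3 and 2578. Without the low-count filter 39 genes were called, and with the block 3 enzymes and 3494 genes. limma on log2(TPM + 1) with the block gave 4 enzymes and 3373 genes. Leaving out 1 library gave 0 enzymes and between 0 and 6 genes. In the paired fit, leaving out replicate 1, 2 or 3 gave 3, 2 and 3 enzymes and 2765, 1581 and 3109 genes. Between replicate numbers, 6 enzymes passed, 0 without a hairpin term, and between 4 and 7 with 1 library left out. Counts among all genes are not given for these alternatives. Of 162 alternative fold changes of single enzymes, 22 passed where the unpaired fit had not, and 19 changed sign, all among LOXL1, LOXL3, LOXL4 and PLOD1, which were not called. Of the 3 enzymes called in the paired fit, PLOD2 lost its call without replicate 2 (adjusted p = 0.0864). PLOD1 was -0.0022 with DESeq2 and with RLE factors and -0.0032 without the filter. LOXL4 was 0.033 with limma on log2(TPM + 1), with or without the block, and 0.045 on log2(TPM + 0.1). With 1 library left out, LOXL1 ranged between -0.034 and 0.44, LOXL3 between -0.28 and 0.091, LOXL4 between -0.56 and 0.47 and PLOD1 between -0.20 and 0.34. In the paired fit LOXL1 was -0.068 and PLOD1 -0.097 without replicate 2, LOXL3 was 0.14 without replicate 1, and LOXL4 was 0.26 and PLOD1 -0.0096 without replicate 3. The cause of these changes was not tested. TGM2, with as few as 18 counts in control library 2, and LOXL3, with between 66 and 122 counts in every library, rest on the fewest counts.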
